A study of Mus musculus with 3 samples.

Results

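CCGG methylation reads were compared gene by gene between undifferentiated mouse embryonic stem cells (ESCs) and the same cells on day 7 of differentiation in the presence of pargyline. A gene was included where at least 3 autosomal CCGG sites of its promoter, or of its body, were listed in either library. The promoter was the sequence within 1 kb of a transcription start site of the gene, and the body was the rest of the gene. Of 51229 autosomal genes, 12966 had a promoter and 20617 had a body with enough sites, 25059 had either and 8524 had both. In all, 966527 autosomal CCGG sites were listed in either library, of which 81749 lay in promoters and 517500 in gene bodies, and 996492 were listed in any library of the study.

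E14Tg2A, an established wild-type mouse ESC line, was kept in medium with leukemia inhibitory factor for the undifferentiated sample (day 0). For day 7, this factor was withdrawn and retinoic acid was added, with 3 mM pargyline in the treated sample and without it in the untreated sample, whose values stand beside the others. Each condition had 1 library, so no difference could be set against a spread between replicates, and no test was made. Differentiation, pargyline and the library itself cannot be told apart in this comparison. The intervals below cover counting error only and take the reads as independent. PCR copies of a fragment were not separated, so the intervals may be too narrow. The labels give all 3 samples as ESCs of a whole cell source, and an assay of DNA methylation does not show the marker transcripts that would check the state of the cells.

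FspEI is an endonuclease that cuts on both sides of a methylated CpG and releases a short fragment, so reads at a CCGG site increase with its methylation and an unmethylated site gives few or none. In mammalian cells most CpGs are methylated, whereas CpG-rich promoters stay largely free of methylation, and genes of later lineages are held silent in ESCs mostly by Polycomb proteins on such promoters. Pargyline inhibits LSD1, a demethylase of histone H3 lysine 4 that takes part in switching off enhancers of pluripotency genes during differentiation.

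The sequence around the site with the most reads is shown for the promoters that lead each direction, because these fragments are what the assay reads. They were read from the GRCm38 reference on the plus strand, and the capitals mark the CCGG site. The first 4 were higher with pargyline and the last 3 were lower.
Lrrc4b, intron, chr7:44442810-44442841: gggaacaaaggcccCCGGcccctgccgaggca
Soat2, upstream of the gene, chr15:102149676-102149707: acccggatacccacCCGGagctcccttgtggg
Hoxc6, exon, chr15:103009733-103009762: ccgtagctcagaaCCGGatctactcgactc
Ggnbp2, upstream of the gene, chr11:84871062-84871093: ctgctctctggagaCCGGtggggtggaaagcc
Klhdc7a, exon, chr4:139967185-139967214: tctaacatctgttCCGGcttcctggccacc
Pax4, intron, chr6:28446401-28446432: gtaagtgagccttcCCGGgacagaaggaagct
Tpi1, upstream of the gene, chr6:124815070-124815101: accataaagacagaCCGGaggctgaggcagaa
The Lrrc4b site had 51 reads with pargyline, 13 in untreated cells and was not listed in undifferentiated cells. The Hoxc6 site had 25 reads with pargyline and was not listed in either other library. It is 1 of 3 Hoxc6 sites with 25 reads, and another of them had 16 reads in untreated cells. In the opposite direction, the Pax4 site had 59 reads in undifferentiated cells and 9 in untreated cells, and was not listed with pargyline. A site is listed only from 5 reads, so an unlisted site had 0 to 4.

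The libraries held 29711884 autosomal CCGG reads at 847112 sites in undifferentiated cells, 24035286 at 869223 sites with pargyline and 34222790 at 859372 sites in untreated cells. All levels are normalized reads, that is, reads divided by this total of the library and multiplied by 1000000. A repeat cluster on chromosome 2, which held 4.70% to 5.37% of the reads, was left out first. Of the sites compared, 749808 were listed in both libraries, 97304 in undifferentiated cells alone and 119415 with pargyline alone. Equal counts were found at 2.61% of the sites listed in both. The autosomal CCGG reads were 58.3% of the mapped reads of the undifferentiated library, 46.4% of the untreated and 35.7% of the pargyline library.

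Promoters carried a larger share of the reads with pargyline, and gene bodies did not. Promoter sites held 5.65% of the CCGG reads of undifferentiated cells (95% Wilson interval 5.642 to 5.659), 6.61% with pargyline (6.597 to 6.617) and 5.90% in untreated cells (5.894 to 5.910). Gene bodies held 56.6%, 55.6% and 56.3%, and sites outside genes held 37.8% in each library. The number of promoter sites listed was 55671 in undifferentiated cells, 74537 with pargyline and 66628 in untreated cells, while their median depth was 21, 14 and 18 reads. The pargyline library thus listed more promoter sites, with fewer reads at the median site.

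By gene, the median promoter had a log2 ratio of 0.39 between pargyline-treated and undifferentiated cells, and the median body of -0.01, with 4 reads placed at every unlisted site of both libraries. The promoter median ranged from 0.32 to 0.48 across the 19 autosomes, and the body median from -0.04 to 0.03. A gene was called where its fold stayed at least 2 after each unlisted site of the lower library was given 4 reads and each of the higher library none, and where the exact 95% counting interval of that bounded fold excluded 1. By this rule 2717 promoters (21.0%) were higher with pargyline and 312 (2.41%) were lower. Among gene bodies 475 (2.30%) were higher and 260 (1.26%) were lower. Both regions were higher in 92 of the 8524 genes that had both, and 21 genes had a higher promoter with a lower body.

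These counts depended on the denominator. Scaled to the mapped reads of each library, as in the RPM values of the authors, 519 promoters were higher and 1887 lower, 83 bodies were higher and 3634 lower, and the medians were -0.31 for promoters and -0.72 for bodies. Scaled by the median ratio of sites in both libraries, 387 bodies were higher and 339 lower. Higher and lower are used below for levels relative to the CCGG reads of the library.

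**Figure D1:**
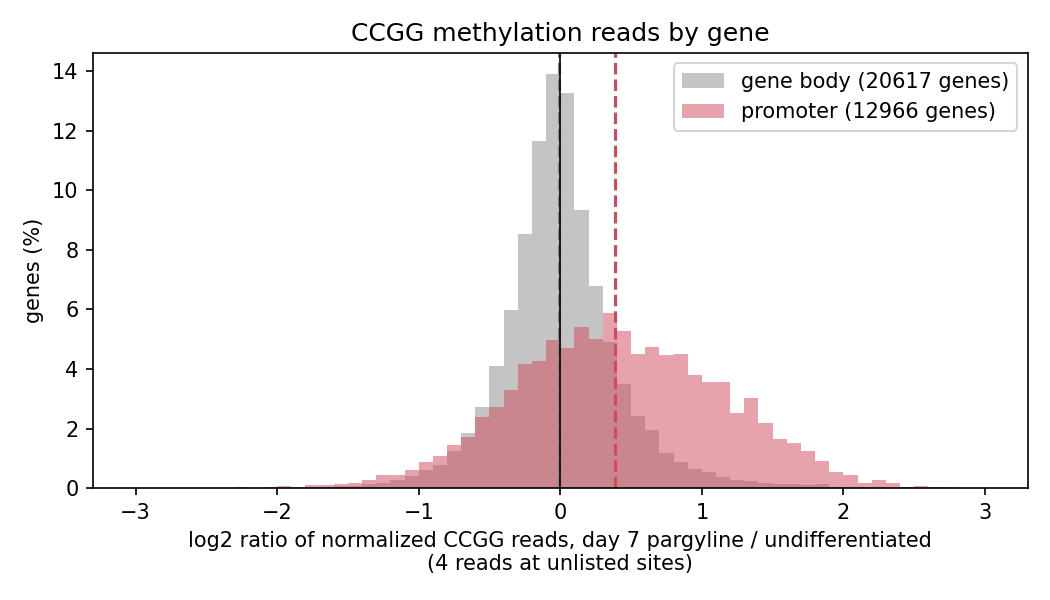
Share of genes (%) by log2 ratio of normalized reads between day 7 pargyline and undifferentiated cells, for 12966 promoters and 20617 gene bodies, with dashed lines at the medians. The body values are centered on -0.01, and the promoter values are spread to the right around 0.39.

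The requirement of 3 sites let many promoters in through the pargyline library alone. Both libraries listed at least 3 sites in 7003 promoters, of which 9.65% were higher and 2.08% lower, with a median log2 ratio of 0.20. In 4611 promoters only the pargyline library listed 3 or more, and 42.8% of these were higher. No undifferentiated site was listed in 1050 promoters, and no pargyline site in 13. At the threshold itself, promoters with 2 sites were higher in 1303 and lower in 617 of 7645 genes, and those with 3 sites in 895 and 215 of 4692 genes. Levels per CCGG motif of the reference, which need no minimum number of sites, are therefore given first for each gene list. By undifferentiated level per site, which is part of the ratio itself, 58.8% of the 3242 promoters with the lowest levels were higher. In the next groups of like size this share was 20.3%, 4.41% and 0.370%. Of the 5155 gene bodies with the lowest levels 9.10% were higher. The gene lists were not matched by this level, so its part in their shares was not tested.

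The share of promoters that were higher was largest in the CpG-rich class. High CpG content (500 bp with over 55% GC and an observed to expected CpG ratio over 0.75) marked 5921 promoters, of which 30.5% were higher and 0.980% lower. For intermediate CpG content these shares were 17.0% and 3.06% of 4026 promoters, and for low CpG content 7.49% and 4.34% of 3019. These shares rest partly on promoters that met the site requirement through the pargyline library alone. Where both libraries listed at least 3 sites, 15.0% of 2278 high-CpG, 8.60% of 2559 intermediate and 5.26% of 2166 low-CpG promoters were higher, and 0.966%, 2.34% and 2.95% were lower. Sites in high-CpG windows of promoters held 840.1 normalized reads in undifferentiated cells, 2052 in untreated cells and 4000 with pargyline, which is 4.76 times the undifferentiated level in listed reads. With 4 reads given to undifferentiated cells at each of the 7231 sites listed with pargyline alone, it was 2.21 times. Sites in low-CpG windows held 48984, 48097 and 50751. Of the 12430 sites in higher promoters, 33.5% were listed in undifferentiated cells, 53.7% in untreated cells and 97.5% with pargyline, where their median was 10 reads.

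Around start sites of protein-coding genes, the level with pargyline lay above that of undifferentiated cells where methylation was lowest. In the 250 bp before the start it was 0.0644 normalized reads per CCGG motif in undifferentiated cells, 0.0771 in untreated cells and 0.106 with pargyline. The ratio of pargyline to undifferentiated was 1.65 there. It was 1.13 between 1000 and 750 bp upstream (0.344 and 0.389) and 1.0 at the far end of the profile, from 5000 to 4750 bp upstream (0.664 and 0.666). Along genes of 10 kb or more the ratio was 1.01 in the first 10% of the length and 0.969 to 0.980 in the rest.

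**Figure D2:**
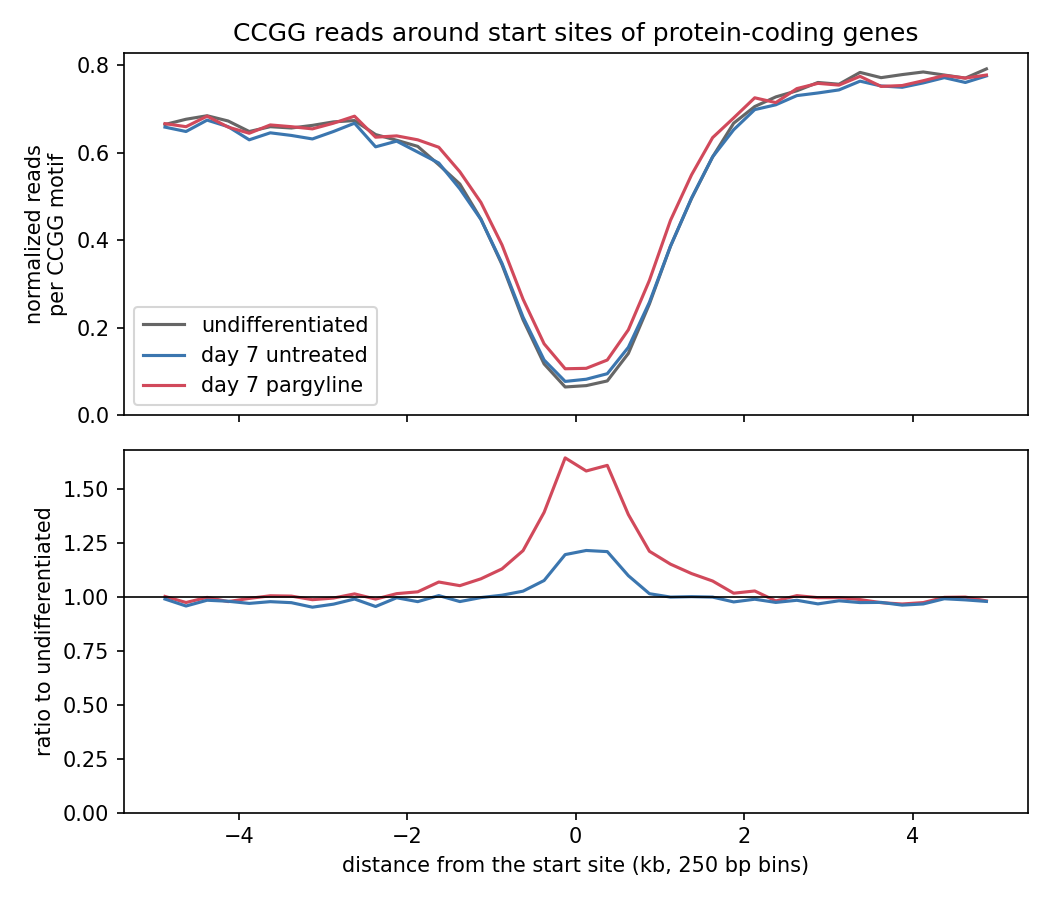
Normalized reads per reference CCGG motif in 250 bp bins around start sites of protein-coding genes (distance in kb) in the 3 libraries, and the ratio of each day 7 library to undifferentiated cells. All 3 lines dip at the start site, and the pargyline line has the highest level there, with a ratio of 1.65 just upstream.

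CCAGG motifs, where the inner cytosine lies outside a CpG, were also listed more often with pargyline. In promoters of protein-coding genes 29.9% of 112393 CCAGG motifs were listed with pargyline and 8.40% in the undifferentiated table, and in gene bodies 29.4% and 9.38%. These shares were 38.3% and 8.66% in the promoters called higher, 37.5% and 13.2% in those called lower and 41.3% and 13.1% in those not called. The CCAGG counts of the undifferentiated table equaled those of the untreated table at 99.97% of 264694 common sites, so its share may not belong to that library. The part of the CCAGG listing in the promoter result was not tested either.

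Among promoters of protein-coding genes that were higher, the one ranked first was Lrrc4b (chr7:44429018-44463351), which encodes a synaptic adhesion protein. Its 4 sites held 0.236 normalized reads in undifferentiated cells, 1.40 in untreated cells and 4.83 with pargyline, and all 4 were higher with pargyline. The fold was at least 7.55 (4.62 to 13). Soat2 (chr15:102150526-102163469), an enzyme that esterifies cholesterol, had 1.08, 4.18 and 7.20 normalized reads over 3 sites listed in every library, a 6.68-fold difference (4.56 to 10.1). A pair of these sites lay within 32 bp and can be read by the same fragments. With such sites merged, 2 were left, below the requirement of 3, with a 5.34-fold difference (3.43 to 8.61). The untreated level of Soat2 lay between the others. Of the first 10 higher promoters Soat2 alone had 3 listed sites in undifferentiated cells, and the other 9 met the site requirement only through the pargyline library.

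Hoxc6, Prdm12 and Tfap2b, also among the first 10, encode transcription factors. Hoxc6 (chr15:102998257-103011881), a homeobox gene of trunk patterning, had 0, 0.818 and 4.53 normalized reads in undifferentiated, untreated and pargyline-treated cells. All 5 of its sites were listed with pargyline, 2 in untreated cells and none in undifferentiated cells, and the fold was at least 6.74 (4.16 to 11.5). Prdm12 (chr2:31640037-31655795), a regulator of sensory neurons, was listed at 14 promoter sites with pargyline, with 6 to 29 reads each, at 2 sites in untreated cells and at none in undifferentiated cells. Its levels were 0, 0.497 and 9.94 normalized reads, a fold of at least 5.28 (3.93 to 7.19), and Gm13425 shared its sites. Tfap2b, an AP-2 factor of neural crest and kidney, had 0, 0.584 and 3.49 normalized reads, a fold of at least 6.49 (3.77 to 11.9). In all 3 the untreated level was much nearer to the undifferentiated than to the pargyline level. These genes were ranked on the difference between pargyline and undifferentiated cells, so an untreated level below the pargyline level is partly by construction.

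The other 5 have general or less known roles. Ggnbp2, a gametogenetin-binding protein, had 0, 0.818 and 2.95 normalized reads in undifferentiated, untreated and pargyline-treated cells. C1d, a cofactor of the nuclear exosome, had 0, 0.760 and 3.62, and its call was lost with a promoter of 2 kb (log2 ratio of 0.81). The promoter of Sez6l2, a neuronal membrane protein, had 0.505, 1.55 and 4.62. For Krtcap2, a subunit of oligosaccharyltransferase whose promoter sites Trim46 shared, the levels were 0, 0.643 and 3.95. Ramac, which activates the mRNA cap methyltransferase, had 0, 2.60 and 2.79, so that both day 7 levels stood apart from the undifferentiated one. The folds of these 5 were between 5.87 and 7.31, each a lower bound. With sites within 32 bp merged, Ggnbp2 kept 1 site and Ramac 2, with folds of at least 8.04 (2.79 to 31.7) and 6.03 (2.78 to 14.9).

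The lower promoters lay below undifferentiated cells with pargyline by construction, and their untreated levels are given against the same undifferentiated library. Klhdc7a (chr4:139960220-139968026), a kelch domain gene, had 4.71 normalized reads in undifferentiated cells, 0.234 in untreated cells and 0.749 with pargyline, at least 5.15-fold lower (3.27 to 8.48), with Mir2139 on the same sites. Pax4 (chr6:28442334-28449353), a factor of pancreatic endocrine cells, had 4.51, 1.69 and 0.915 and was at least 4.17-fold lower (2.72 to 6.61). Tpi1 (chr6:124810586-124814296), the glycolytic triosephosphate isomerase, had 5.59, 2.89 and 1.50 and was 3.73-fold lower (2.59 to 5.51). For each of these genes both day 7 levels were below the undifferentiated level.

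The other lower promoters included those of genes used in single tissues. Cnga1, the channel of rod photoreceptors, had 8.75, 3.86 and 2.33 normalized reads in undifferentiated, untreated and pargyline-treated cells. Ucp3, a mitochondrial carrier of muscle, had 13.2, 9.35 and 5.53, and was 2.38-fold lower (1.95 to 2.92) over 4 sites that were lower at every one. Defb50, a beta-defensin, had 2.39 and 0.175 and was not listed with pargyline. The remaining 4 were the kinase-like gene Styk1, Ccdc71 (with Klhdc8b), the zinc finger gene Zfp773 and the kelch gene Klhl8, with folds of 2.56 to 3.34. With a promoter of 2 kb the calls of 6 of the 10 lower promoters were lost (Klhdc7a, Tpi1, Cnga1, Ccdc71, Ucp3 and Klhl8), with log2 ratios of -0.92 to -0.50.

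**Figure D3:**
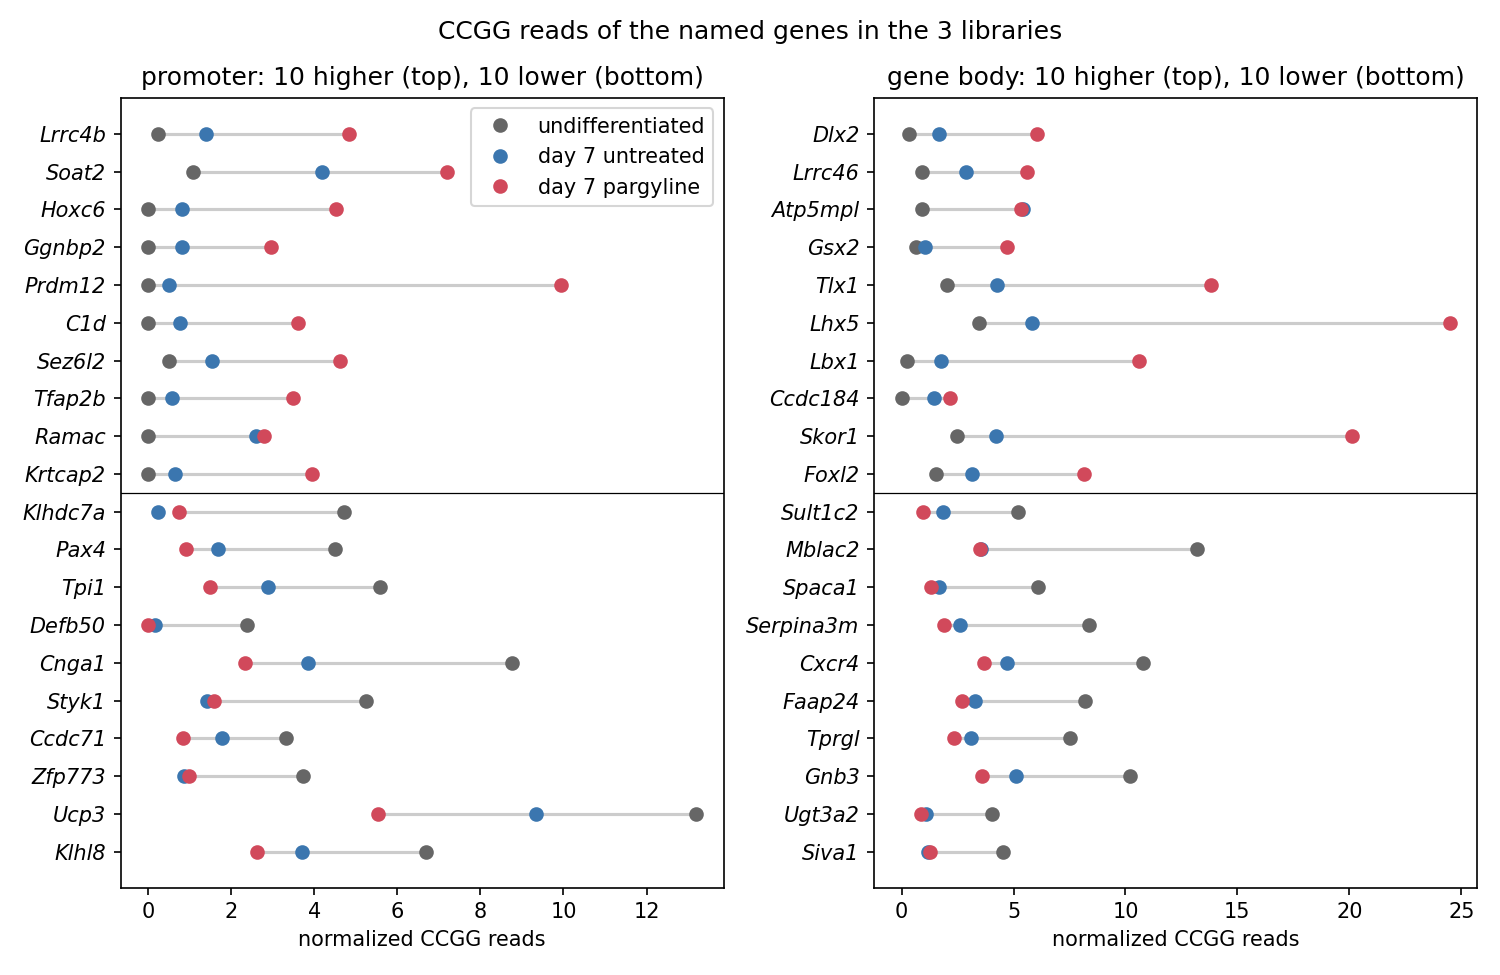
Normalized reads in undifferentiated, day 7 untreated and day 7 pargyline cells for the 10 higher and 10 lower promoters and gene bodies, with a gray line from undifferentiated to pargyline. Prdm12 reaches 9.94 and Lhx5 24.5 with pargyline, while the untreated points of both lie near the undifferentiated ones. The genes were ranked on the difference between undifferentiated and pargyline.

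The first 10 higher gene bodies included those of the homeobox genes Dlx2, Gsx2, Tlx1, Lhx5 and Lbx1. Of these 10 bodies 4 (Tlx1, Lhx5, Skor1 and Foxl2) had 3 or more sites listed in undifferentiated cells, and 6 met the requirement only through the pargyline library. Dlx2 (chr2:71543408-71546754), a factor of forebrain interneurons, had 0.337 normalized reads in undifferentiated cells, 1.69 in untreated cells and 6.07 with pargyline over 8 body sites, a fold of at least 5.31 (3.63 to 7.95). Lhx5 (chr5:120431699-120441223), a LIM homeobox factor of the forebrain and spinal cord, had 3.47, 5.81 and 24.5 over 40 sites, of which 11, 19 and 40 were listed. Its fold was at least 3.32 (2.84 to 3.90). Lbx1, a factor of spinal cord and migrating muscle precursors, was listed at 1, 7 and 21 of 21 sites, with 0.236, 1.78 and 10.6 normalized reads. In these 3 genes the pargyline library was the highest at most or all sites and the untreated library was nearer to the undifferentiated one. As for the promoters, this is partly by construction, since the ranking used the pargyline and undifferentiated libraries.

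Gsx2, a factor of the ventral forebrain, had 0.639, 1.05 and 4.70 normalized reads in undifferentiated, untreated and pargyline-treated cells. Tlx1, which is needed for the spleen, had 2.02, 4.24 and 13.8. The body of Skor1, a corepressor that works with Lbx1, was listed at 38 sites with pargyline against 11 in undifferentiated and 19 in untreated cells, and had 2.46, 4.21 and 20.1 normalized reads. Foxl2, a forkhead factor of the ovary, had 1.55, 3.16 and 8.15. The folds of these 4 genes were between 3.29 and 5.17.

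The 3 other leading bodies were those of Atp5mpl, Lrrc46 and Ccdc184. Atp5mpl, a small subunit of the mitochondrial ATP synthase, had 0.909 normalized reads in undifferentiated cells, 5.43 in untreated cells and 5.33 with pargyline. Lrrc46 had 0.909, 2.89 and 5.62, and Ccdc184 had 0, 1.43 and 2.16. In Atp5mpl and Ccdc184 the untreated level was nearer to the pargyline level. Sites of higher bodies lay within 3 kb of a start site in 51.4% of cases, against 37.5% for lower bodies and 11.7% for bodies that were not called. In the same order 47.8%, 35.1% and 16.2% were exonic. Genes under 10 kb made up 302 of the 475 higher bodies and 4331 of all 20617, and these shares were not separated from gene length.

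The lower bodies named here were lower in both day 7 libraries. With pargyline this was by construction, and the untreated levels are given against the same undifferentiated library, whose high values the ranking favored. Cxcr4 (chr1:128588199-128592293), a chemokine receptor that is also a marker of definitive endoderm, had 10.8 normalized reads in undifferentiated cells, 4.70 in untreated cells and 3.66 with pargyline over 5 sites, each lower with pargyline, a 2.95-fold difference (2.32 to 3.78). Mblac2, a metallo-beta-lactamase domain gene, had 13.2, 3.54 and 3.49 and was at least 3.29-fold lower (2.63 to 4.16). Sult1c2, a sulfotransferase, had 5.18, 1.84 and 0.957 and was at least 4.02-fold lower (2.72 to 6.12). Spaca1 of the sperm acrosome, Serpina3m, Faap24 of the Fanconi anemia pathway, Tprgl (with Wrap73), Gnb3, Ugt3a2 and the apoptosis gene Siva1 were 2.84-fold to 3.66-fold lower.

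Hox genes, which pattern the body axis and are induced by retinoic acid, had a higher level with pargyline, while the level of untreated cells was close to that of undifferentiated cells. Over all 553 CCGG motifs in the promoters of the 39 Hox genes, the level was 0.117 normalized reads per motif in undifferentiated cells, 0.113 in untreated cells and 0.287 with pargyline. In their bodies it was 0.266, 0.278 and 0.530 over 419 motifs. Over CpG-rich promoters of all 11071 protein-coding genes of that class it was 0.0762, 0.0899 and 0.120, so the level with pargyline was 2.44 times the undifferentiated level in Hox promoters and 1.58 times in CpG-rich promoters as a whole. Unlisted motifs count as 0 in these levels. With 4 reads in undifferentiated cells at each motif listed with pargyline alone, the ratios were 1.86 and 1.31. Scaled to mapped reads instead, these ratios were 1.50 and 0.966, so the direction turned for CpG-rich promoters and not for Hox promoters. CCAGG motifs were listed with pargyline at 43.2% in Hox promoters and at 26.9% in CpG-rich promoters, and the part of this was not tested.

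Of the 39 Hox genes, 29 had a promoter with 3 or more sites, and 12 of these (41.4%) were higher and none lower, against 21.0% and 2.41% of all promoters. Of the 12, 6 had under 3 listed sites in undifferentiated cells. Among the 19 with 3 or more sites in both libraries 6 were higher, against 9.65% of all such promoters. Over the 29, the log2 ratios ranged from 0.12 to 2.75 with a median of 0.87. Bodies were higher in 12 of 29, against 2.30% of all bodies, with a median of 0.93, and in 7 of 21 with 3 or more sites in both libraries, against 1.51% of all such bodies. Besides Hoxc6, the promoter of Hoxc9 (chr15:102976439-102985099) had 0, 0.409 and 4.08 normalized reads in undifferentiated, untreated and pargyline-treated cells, a fold of at least 4.33 (2.82 to 6.84). Hoxa11 (chr6:52242106-52245810) had 0.707, 0.877 and 7.41 over 13 sites, a fold of at least 3.61 (2.68 to 4.91). Hoxc9, Hoxb5 and Hoxa10 led the bodies, with 7.66, 4.04 and 5.16 normalized reads with pargyline against 1.82, 0.707 and 0.438 in undifferentiated cells. In untreated cells those bodies had 2.19, 1.17 and 0.964. Their calls were lost when scaled to mapped reads (log2 ratios of 0.99, 0.99 and 0.83).

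Promoters of neural genes also had their highest level with pargyline. Over the promoters of 25 transcription factors and markers of the neural lineage, the level was 0.0536 normalized reads per motif in undifferentiated cells, 0.0670 in untreated cells and 0.180 with pargyline, a ratio of 3.35, or of 2.16 with the 4 reads. Of 18 promoters with enough sites 11 (61.1%) were higher and none lower, against 21.0% of all promoters, and of 18 bodies 6 were higher, against 2.30% of all bodies. Among the 3242 promoters of any gene with the lowest undifferentiated levels per site, 58.8% were higher. Neural promoters were not compared with others of matched level. Of the 11 promoters 8 had under 3 listed sites in undifferentiated cells. With 3 or more sites in both libraries, 3 of 5 promoters (En1, Nkx2-2 and Pax6) and 3 of 12 bodies were higher, against 9.65% and 1.51% of all such promoters and bodies. Nkx2-2, a ventral neural tube factor, had 1.72, 2.43 and 8.61 normalized reads in its promoter. Pax7, a factor of dorsal neural tube and muscle stem cells, had 0, 0.292 and 4.16 over 9 sites, and the promoter of Dlx2 had 0, 0.555 and 3.0, a call that was lost under 2 alternatives. The body of Nkx6-1, a factor of motor neuron progenitors, had 0.404, 1.05 and 5.66.

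**Figure D4:**
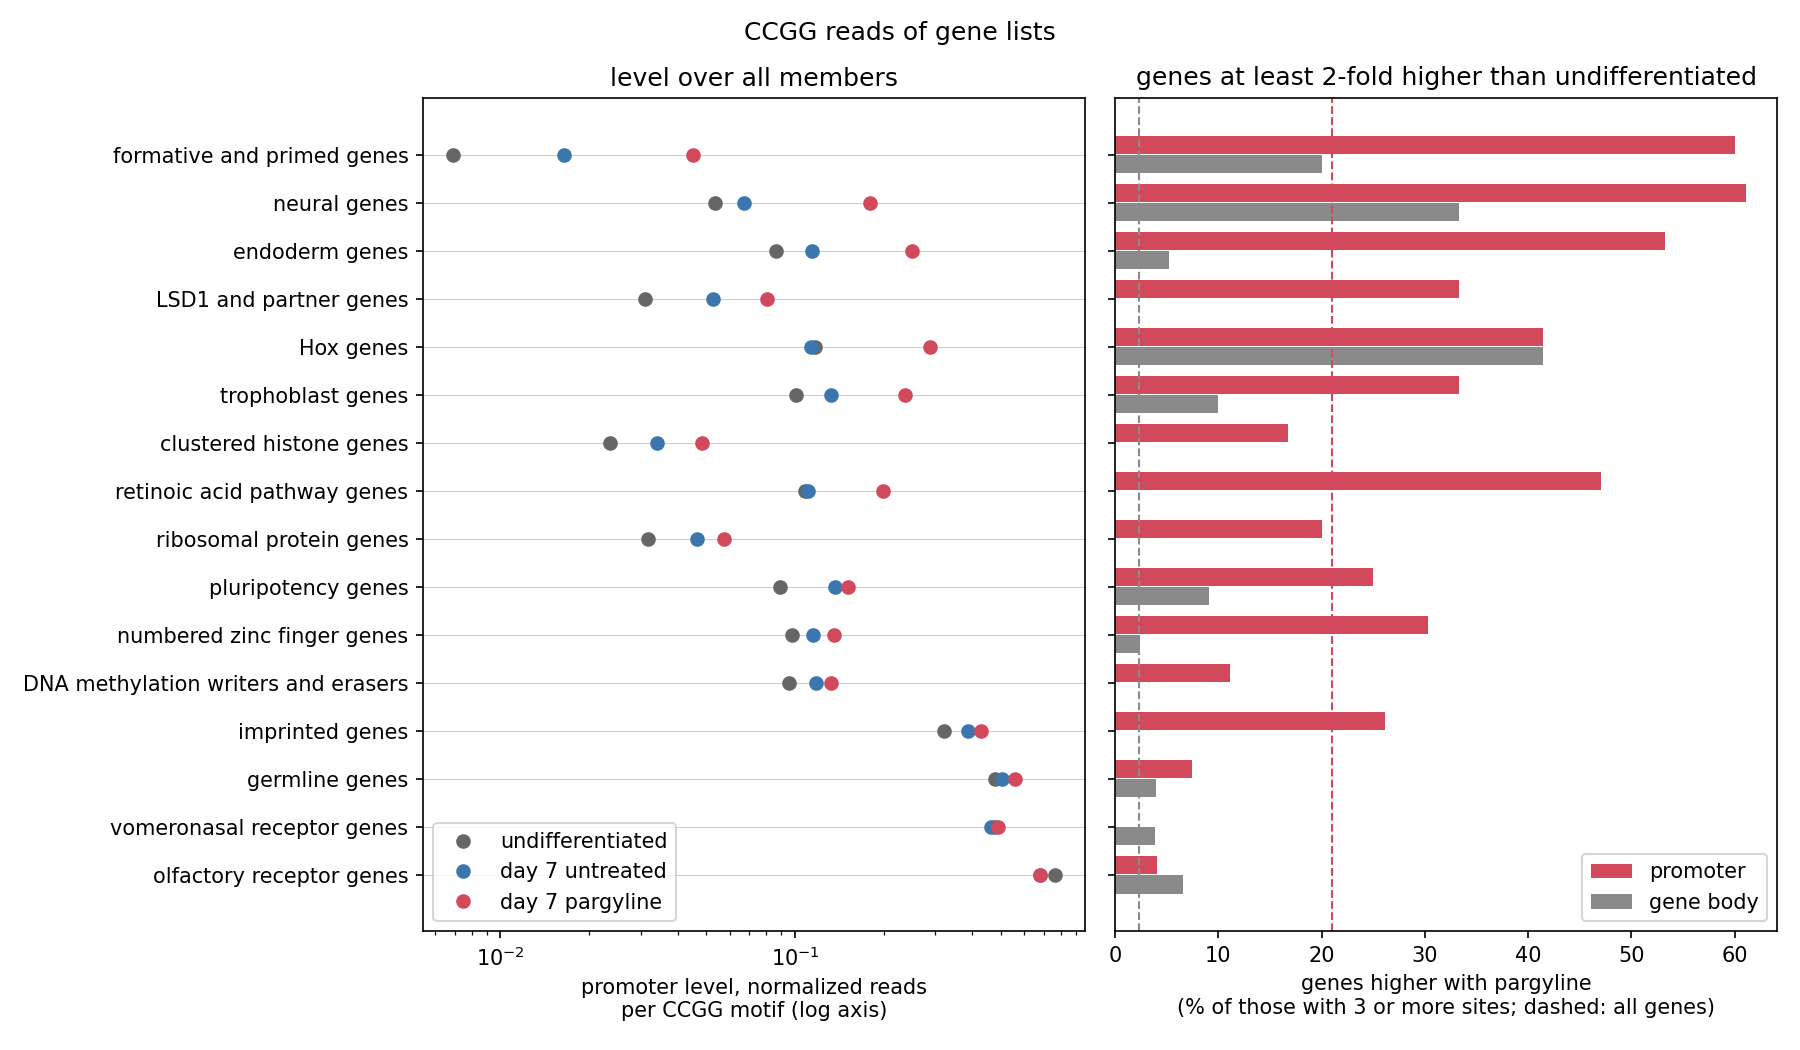
Left, promoter level in normalized reads per CCGG motif (log axis) over all members of each gene list in the 3 libraries; right, the share of promoters and gene bodies with 3 or more sites that were higher with pargyline, with dashed lines at 21.0% and 2.30% for all genes. Hox promoters stand at 0.117, 0.113 and 0.287 in undifferentiated, untreated and pargyline-treated cells.

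Endoderm and trophoblast genes were compared in the same way. Endoderm gene promoters had 0.0865, 0.114 and 0.25 normalized reads per motif in undifferentiated, untreated and pargyline-treated cells, and 8 of 15 (53.3%) were higher, against 21.0% of all promoters. Pdgfra, a receptor of primitive endoderm and mesoderm, had 0.639, 1.11 and 6.86 normalized reads over 11 promoter sites. Trophoblast gene promoters had 0.101, 0.133 and 0.237 per motif, and 3 of 9 (33.3%) were higher (Eomes, Gata3 and Ets2), against the same 21.0%. The call of Ets2 was lost under 4 alternatives, with log2 ratios of 0.11 to 1.0. All 3 higher trophoblast promoters and 5 of the 8 higher endoderm promoters had under 3 listed sites in undifferentiated cells. With 3 or more sites in both libraries, 3 of 8 endoderm and none of 3 trophoblast promoters were higher, against 9.65% of all such promoters. The ratio of the levels was 2.89 for endoderm and 2.33 for trophoblast promoters. With the 4 reads these ratios were 2.03 and 1.73, and scaled to mapped reads 1.77 and 1.44. Eomes, a T-box factor of trophoblast and mesendoderm, had 0, 0.555 and 3.33. Gata3 had 0.202, 0.205 and 2.75, so that untreated cells stood at the undifferentiated level. The call of Gata3 was lost when scaled to mapped reads (0.94).

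In the retinoic acid pathway, promoters had 0.108, 0.111 and 0.199 normalized reads per motif in undifferentiated, untreated and pargyline-treated cells. The ratio was 1.84, or 1.52 with the 4 reads and 1.13 scaled to mapped reads. Of 17 promoters 8 (47.1%) were higher, against 21.0% of all promoters. Of these 8, 6 had under 3 listed sites in undifferentiated cells. With 3 or more sites in both libraries 2 of 6 (Rara and Rxrg) were higher, against 9.65% of all such promoters. None of 20 bodies was called, against 2.30% of all bodies that were higher and 1.26% that were lower. Rxrg, a retinoid X receptor, had 1.72, 4.15 and 6.78 normalized reads, a fold of at least 3.42 (2.52 to 4.68). Crabp2, which carries retinoic acid to its receptors, had 0.168, 0.818 and 2.45. Cyp26b1, which degrades retinoic acid, had 0.404, 1.55 and 2.75, with 72.7% of its pargyline reads at 1 site. The receptor Rarb was the one lower promoter of the list, with 2.12, 1.14 and 0.832 normalized reads over 3 sites, and its call was lost with a minimum of 10 reads (-0.76).

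Pluripotency gene promoters had similar levels in both day 7 libraries. Over 28 genes the level was 0.0890 normalized reads per motif in undifferentiated cells, 0.137 in untreated cells and 0.152 with pargyline. The ratio of pargyline to undifferentiated was 1.71, or 1.37 with the 4 reads and 1.05 scaled to mapped reads. Of 12 promoters 3 (25%) were higher, close to the 21.0% of all promoters. With 3 or more sites in both libraries 1 of 5 (Lefty1) was higher, against 9.65% of all such promoters. Pou5f1 (chr17:35506018-35510772), which encodes OCT4, had 0.202, 3.62 and 3.45 normalized reads in its promoter, a fold of at least 5.70 with pargyline (3.39 to 10.1). Its 4 sites had 18, 34, 19 and 12 reads with pargyline, 21, 74, 13 and 10 in untreated cells, and a single one was listed in undifferentiated cells, with 6 reads. Untreated cells listed 1 further promoter site. The body of Pou5f1 had 0.404, 2.37 and 2.33. The growth factor gene Fgf4 had 0, 1.55 and 2.45 in its promoter, and the body of Dppa3, a maternal factor that protects methylation, had 1.88, 2.10 and 4.62. The call of Dppa3 was lost under 2 alternatives (0.59 scaled to mapped reads and 0.96 with a promoter of 500 bp).

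**Figure D5:**
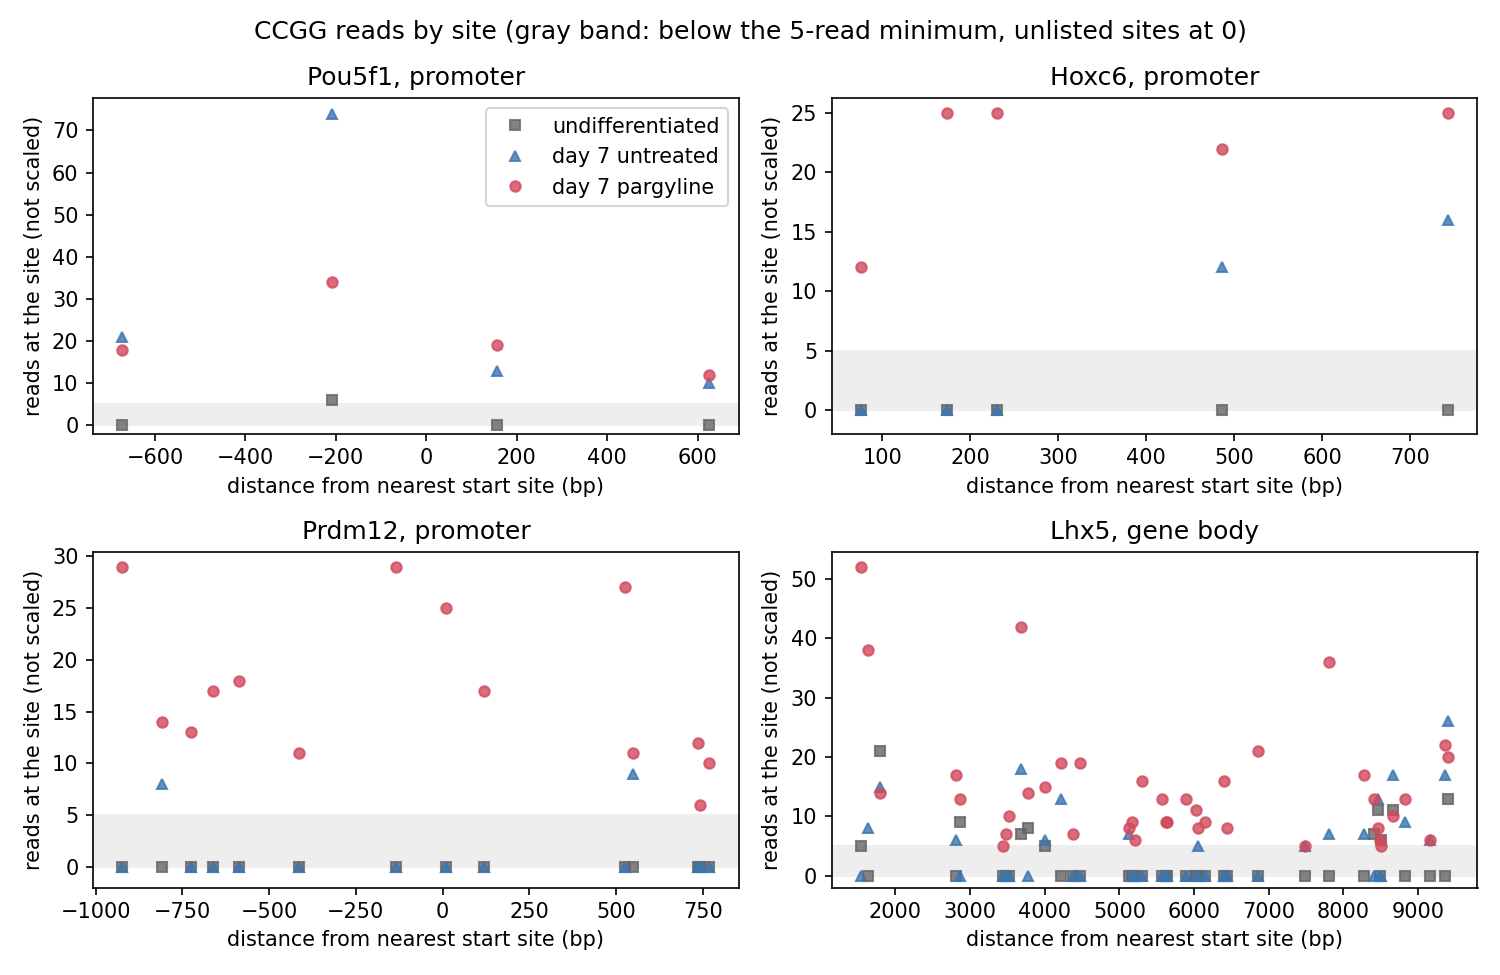
Reads at each CCGG site (not scaled) by distance from the nearest start site (bp) for the promoters of Pou5f1, Hoxc6 and Prdm12 and the body of Lhx5, with unlisted sites at 0 and a gray band below the 5 reads needed for listing. Both day 7 libraries are high at the 4 Pou5f1 sites, and at the 14 Prdm12 sites the untreated library is listed at 2.

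Enhancers of certain pluripotency genes were measured in the study by another assay, and the promoters and bodies of these genes (Esrrb, Lefty1, Lefty2, Sall4, Sox2 and Trim28) were compared here. Over their promoters the level was 0.134 normalized reads per motif in undifferentiated cells, 0.141 in untreated cells and 0.236 with pargyline. The ratio of pargyline to undifferentiated was 1.76, or 1.49 with the 4 reads and 1.08 scaled to mapped reads. The promoter of Lefty1, a Nodal antagonist, had 1.72 normalized reads in undifferentiated cells, 2.19 in untreated cells and 3.99 with pargyline, a 2.33-fold difference (1.64 to 3.34). Its call was lost when scaled to mapped reads and with a promoter of 2 kb (log2 ratios of 0.51 and 0.95). The promoter of Esrrb, a nuclear receptor of naive ESCs, had 5.62, 3.42 and 8.32, and did not reach the call (1.24-fold, 1.02 to 1.52). Bodies of Lefty1, Lefty2, Trim28, Esrrb and Sall4 were not called, with log2 ratios between -0.18 and 0.65. Sox2 had too few sites in both regions, and Lefty2, Trim28 and Sall4 too few in their promoters.

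Formative and primed genes, which mark the exit from the naive state, had nearly unmethylated promoters, at 0.00691, 0.0165 and 0.0451 normalized reads per motif in undifferentiated, untreated and pargyline-treated cells. With 4 reads in undifferentiated cells at motifs listed with pargyline alone, the pargyline level was 2.03 times the undifferentiated one. Of 5 promoters 3 were higher (Lef1, Fgf5 and Otx2), against 21.0% of all promoters, and of 10 bodies 2 (Pou3f1 and Zic2), against 2.30% of all bodies. All of these met the site requirement with under 3 listed sites in undifferentiated cells, and none of the 5 promoters had 3 sites in both libraries. The calls were lost under 1 alternative for Lef1, 2 for Fgf5, 3 for Otx2 and 2 for the body of Zic2. Otx2, a homeobox factor of the epiblast and anterior brain, had 0.168, 0.409 and 2.04 normalized reads. The growth factor gene Fgf5 had 0, 0.175 and 1.08. The body of Pou3f1, a POU factor of primed cells, had 0.236, 1.02 and 3.0.

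Promoters of lists that were already methylated had smaller ratios, and scaled to mapped reads the germline and imprinted ratios turned from 1.17 and 1.34 to 0.716 and 0.822. Germline gene promoters, which DNA methylation keeps silent in somatic cells, had 0.479, 0.503 and 0.559 normalized reads per motif in undifferentiated, untreated and pargyline-treated cells, and 2 of 27 (7.41%) were higher, against 21.0% of all promoters. Tdrd6, a tudor protein of germ granules, had 3.0, 4.76 and 10.5 normalized reads, and Dazl, an RNA-binding protein of germ cells, had 3.13, 5.79 and 7.49. The call of Tdrd6 was lost under 2 alternatives (log2 ratios of 0.65 and 0.87) and that of Dazl under 4 (0.32 to 0.99). Imprinted gene promoters had 0.320, 0.387 and 0.429 per motif, and 6 of 23 (26.1%) were higher, against 21.0% of all promoters. With 3 or more sites in both libraries 3 of 15 were higher, against 9.65% of all such promoters. Cdkn1c, a maternally expressed cell cycle inhibitor, had 0.808, 1.99 and 6.12. Its call was lost under 4 alternatives, and with the 3 sites that belong to no other gene its log2 ratio was 0.0. Peg10 and Sgce, which share 1 promoter, had 0.202, 0.497 and 1.71. Olfactory receptor promoters, which are poor in CpG, had 0.765, 0.681 and 0.677 per motif. Of 49, 2 (4.08%) were higher and 1 lower, against 21.0% and 2.41% of all promoters.

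Genes of the enzymes concerned were compared too. Promoters of LSD1 and its partner genes had 0.0310, 0.0529 and 0.0805 normalized reads per motif in undifferentiated, untreated and pargyline-treated cells, and 4 of 12 (33.3%) were higher, against 21.0% of all promoters. Of these 4, Gfi1 alone had 3 listed sites in undifferentiated cells. Gfi1, a repressor that recruits LSD1, came first with 1.72, 3.62 and 10.2 normalized reads. The call of the partner gene Phf21a was lost when scaled to mapped reads, and its direction turned, to -0.31, with a promoter of 2 kb. The ratio of the levels was 2.59, or 1.74 with the 4 reads. DNA methylation writers and erasers had 0.0957, 0.118 and 0.133 per motif, and 1 of 9 (11.1%) was higher, against 21.0% of all promoters. It was the dioxygenase gene Tet3, with 0.539, 1.46 and 3.45. Its call was lost under 2 alternatives (0.81 scaled to mapped reads and 0.76 with a promoter of 2 kb). None of 22 bodies of LSD1 and partner genes and none of 16 of the methylation enzymes was called, near the 2.30% and 1.26% of all bodies that were higher and lower. Ribosomal protein promoters, which are active in every cell, had 0.0318, 0.0466 and 0.0575 per motif. Of 15, 3 were higher, each with under 3 listed sites in undifferentiated cells. This share was 20.0%, against 21.0% of all promoters. Numbered zinc finger gene promoters had 0.0978, 0.115 and 0.136. Of 99, 30 (30.3%) were higher and 1 lower, against 21.0% and 2.41% of all promoters. Of the 30, 25 had under 3 listed sites in undifferentiated cells. With 3 or more sites in both libraries 5 of 37 were higher, against 9.65% of all such promoters. Scaled to mapped reads, the ratios of the methylation enzyme and zinc finger lists turned from 1.39 to 0.852 and 0.853, and those of the LSD1 and ribosomal lists were 1.59 and 1.11.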

How the data were processed

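MethylRAD libraries of 3 conditions, 1 per condition, were used. The authors trimmed the reads, kept those holding a recognition site, aligned them to GRCm38 by Bowtie2 2.3.3 (FastQC 0.11.3 is also named in the submitters' processing notes), kept reads that mapped once and deposited, for each site with at least 5 reads, the count of reads without normalization. The authors also deposited an RPM value, the count scaled to the mapped reads of the library, which was used for 1 alternative. Both libraries of the comparison were divided by their autosomal CCGG reads, so values are relative to these totals. Sites were assigned to genes of GENCODE M21 basic (GRCm38), and a site could count for several genes. Levels per motif were summed over reference CCGG sites with at most 1000 reads taken from any site. Ratios with 4 reads at motifs or sites listed with pargyline alone were added after seeing the data. Of the sites, 2.59% did not have CCGG in the reference. CpG classes followed the limits of the study's methods.

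Named genes were the 10 higher and 10 lower per region, ranked by the limit of the counting interval nearest to 1, among protein-coding genes without a model number as symbol in which no site held over 50% of the reads of the higher library, the first 3 called per list and direction, which were not held to that 50%, and the genes whose enhancers the study measured. The members and lists were chosen with earlier results of these data known. Alternatives were 4 scalings or treatments of unlisted sites, higher minimums, sites left out or merged, other promoter widths, 5 sites and folds of 1.5 and 3. The comparison was tested on simulated data. Scripts ran on Python 3.11.15 with pandas 2.3.3, numpy 2.4.6, matplotlib 3.10.9 and SciPy 1.17.1. Clopper-Pearson intervals were used for folds. The values of 1 named gene are not reported here.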

Additional observations from a re-analysis of the deposited data

How the results depend on the processing

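The choice of the denominator mattered most. Scaled to the mapped reads, 519 promoters were higher and 1887 lower, 83 bodies were higher and 3634 lower, and the medians were -0.31 (promoters, a turned direction) and -0.72 (bodies), since CCGG reads were 35.7% of the mapped reads with pargyline and 58.3% in undifferentiated cells. With the median site ratio the medians were 0.32 and -0.09, and with all CCGG reads the body median was -0.03. With a minimum of 10 reads 784 promoters were higher and 170 lower, 266 bodies were higher, and the promoter median was 0.21. With 5 or more sites 1216 and 45 promoters and 226 and 84 bodies were higher and lower, and the promoter median was 0.47. With 3 or more sites in each library, an alternative chosen after seeing the data, these values were 676 and 146, 295 and 165, and 0.20. Promoters of 500 bp on each side gave 146 lower and a median of 0.62, and those of 2 kb gave 618 lower and 0.19. The median was 0.35 with sites within 32 bp merged and 0.33 with sites of 1 gene only. At 1.5-fold, 4405 and 906 promoters and 1437 and 1171 bodies were higher and lower, and at 3-fold 744 and 61, and 117 and 34. Where these values have no evident reason in the construction, the cause was not tested.

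For 115 named promoters and bodies, 1383 of 1610 values could be recomputed, and in 227 too few sites were left. Of 1303 values of the called ones, 81 lost the call, 1 of them by turning direction, the promoter of Phf21a with a promoter of 2 kb (-0.31 on the log2 scale). Of 80 values of the uncalled ones, 4 turned (Esrrb promoter, -0.11 to -0.04, and Lefty1 body, -0.01). Scaling to mapped reads ended 34 calls, among them the bodies of Hoxc9, Hoxb5 and Hoxa10, and the promoters of 2 kb ended 23, among them those of C1d, Klhdc7a and Tpi1. With 1 library per condition, no difference was compared with a biological or technical spread, and sites under 5 reads are unknown.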

Other observations

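Vomeronasal receptor promoters had 0.477 normalized reads per CCGG motif in undifferentiated cells, 0.464 in untreated cells and 0.488 with pargyline, and none of 4 was called, against 21.0% of all promoters that were higher. Of 77 bodies 3 (3.90%) were higher and 4 (5.19%) lower, against 2.30% and 1.26% of all bodies. Clustered histone promoters had 0.0236, 0.0341 and 0.0482, a ratio of 2.04 between pargyline-treated and undifferentiated cells (1.25 scaled to mapped reads), and 1 of 6 (16.7%) was higher, that of the testis linker histone gene Hist1h1t, with 0.673, 1.99 and 3.08 normalized reads. Bodies of ribosomal protein genes had 0.612, 0.672 and 0.536 per motif, and that of Rps28 was lower, with 5.52, 4.44 and 1.96. The body of Ascl2, a trophoblast and intestinal stem cell factor, was lower, with 5.59, 2.98 and 2.45, whereas the body of Hand1, a factor of trophoblast giant cells and heart, was higher, with 1.99, 2.78 and 5.41. The call of Hand1 was lost under 3 alternatives and that of Ascl2 under 1. Among zinc finger promoters, Zfp658 had 0.404, 2.43 and 3.33 and Zfp30 had 0.303, 1.99 and 2.75, but single sites held 88.8% and 84.8% of their pargyline reads, and both calls were lost with a promoter of 2 kb (0.98 and 0.80 on the log2 scale).

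Long genes were rarely called in their bodies. The calls also depended on the number of sites summed. Of 1697 bodies with 3 sites 9.13% were higher and 6.60% lower, while of 17557 with 5 or more 226 were higher and 84 lower. Gene length and number of sites were not separated. Of 2749 bodies of genes of 100 kb and over none was higher and 3 were lower, while of 4331 genes under 10 kb 302 (6.97%) were higher and 120 (2.77%) lower, against 2.30% and 1.26% of all bodies. In promoters the share that was higher was 18.5% under 10 kb and 24.6% from 100 kb, against 21.0% of all promoters. By biotype, 24.3% of protein-coding promoters were higher, 20.6% of antisense, 14.1% of lincRNA and 9.5% of processed pseudogene promoters.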
